A study of Astyanax mexicanus with 6 samples.

Results

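Oxidative phosphorylation passes electrons from complex I or complex II through complex III and cytochrome c to oxygen at complex IV, and the ATP synthase, complex V, makes ATP from the resulting proton gradient. The nuclear-encoded part of complexes II to V was described here in liver-derived cell lines of the Mexican tetra *Astyanax mexicanus*, a fish with river-dwelling and cave-dwelling forms. Its genes were found by symbol alone, as every gene whose name starts like a subunit or assembly factor of complex II (sdh), complex III (uqcr, uqcc, cyc1, bcs1l), complex IV (cox followed by a digit, surf1, sco1, sco2) or complex V (atp5), or is cytochrome c. This gave 71 of the 27420 genes in the expression table, and all 71 passed the filter on low values that left 18489 genes for testing. They comprised 4 subunits and 4 assembly factors of complex II, 11 subunits and 4 assembly factors of complex III, cytochrome c, 20 subunits and 12 assembly factors of complex IV, and 15 subunits of complex V. Genes of the mitochondrial genome, which encode the catalytic core of complex IV and part of complexes III and V, were not analysed here.

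Subunits of these complexes are present in nearly every cell, and liver, which oxidises fatty acids and amino acids, is rich in them. In vertebrates several subunits of complex IV exist as paralogs, that is, as isoforms from duplicated genes. In mammals some of these isoforms are restricted to muscle, lung or testis, while others are made everywhere. Fish carry further copies of some subunits, which the symbols mark with a final a or b.

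SFL cells came from livers of surface fish and CFL cells from livers of Pachón cavefish, both 5 months old, and each line had 3 libraries of polyadenylated RNA. SFL replicate 1 was taken at passage 45 and replicates 2 and 3 at passage 46, whereas CFL replicate 1 was taken at passage 50 and replicates 2 and 3 at passage 51. The Pachón fish were starved for 1 week before dissection and the surface fish were not, and each line was cloned by serial dilution, so fish form, starvation, clone and passage cannot be told apart. The study found CFL to be hyperdiploid and to carry B chromosomes, whereas SFL had the normal chromosome number. From the B chromosomes it proposes a male origin of CFL, and the sex of SFL could not be tested. Chromosome number and sex therefore cannot be told apart from the line either. Both lines grew in medium with bovine insulin, mouse epidermal growth factor, fetal bovine serum and trout serum, but in early passages, before those sequenced, each line also received an extract of embryos of its own form, which cannot be told apart from the other differences either. Because each line is a single cloned population, p-values measure only the spread between these cultures. The labels give the tissue as liver. Of 19 hepatocyte markers 15 were in the table, and their summed level was 0.77 to 1.33 TPM in CFL against 71.2 to 123 TPM in SFL, with ttr listed at 0 in every library. The SFL sum was mostly rbp4, at 48.6, 110 and 68.9 TPM, and 4 of the 15 markers reached 1 TPM in all SFL libraries. In bulk RNA, fewer cells expressing a gene and less RNA of it per cell cannot be told apart. TPM is the length-corrected share of a gene among the transcripts of a library, scaled to a total of 1000000, and the sequencing depth behind it is unknown here. Changes are given below as the SFL minus CFL difference of mean log2(TPM + 1), in which the added 1 makes changes of weakly expressed genes appear smaller. Many are followed by a standard error and by limma's Benjamini-Hochberg adjusted p. The adjustment is over all 18489 genes, or over the genes tested where another setting is named.

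The summed level of the respiratory genes did not separate the lines, and the changes farthest from 0 were in paralogs counted among the complex IV subunits. With an adjusted p under 0.05 and a change of at least 2-fold, 3 of 71 members (4.23%) were higher in SFL, against 11.7% of all genes tested, and 5 of 71 (7.04%) were higher in CFL, against 8.88% of all genes. The first 3 were cox4i1l, cox8b and cox7a2l, all counted here by symbol among the complex IV subunits. The 5 were cox6b1 and cox6c of complex IV, its assembly factor cox14, and uqcrh and bcs1l of complex III. With the adjusted p alone, 5 members had their higher level in SFL (19.5% of all genes) and 7 had it in CFL (15.2% of all genes), adding cox4i2 and uqcc3 on the SFL side and sdhc and atp5l on the CFL side. The 3 libraries of one line lay wholly above those of the other for 8 members in SFL (29.8% of all genes) and for 15 in CFL (23.1% of all genes). Each of these shares of the members was close to or below the share of all genes. The median change was 0.04 over the members and 0.07 over all genes. It was 0.28 over the members and 0.05 over all genes without SFL replicate 3. It was -0.07 over the members and 0.10 over all genes without SFL replicate 1. Without SFL replicate 2 it was -0.11 over the members and 0.05 over all genes. Median-ratio scaling gave -0.07 and quantile normalization -0.09, against 0 and -0.02 over all genes, so the sign of the members' median rests on these choices. With all libraries there were 37 positive and 34 negative changes, over a range from -1.84 to 3.66.

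**Figure D1:**
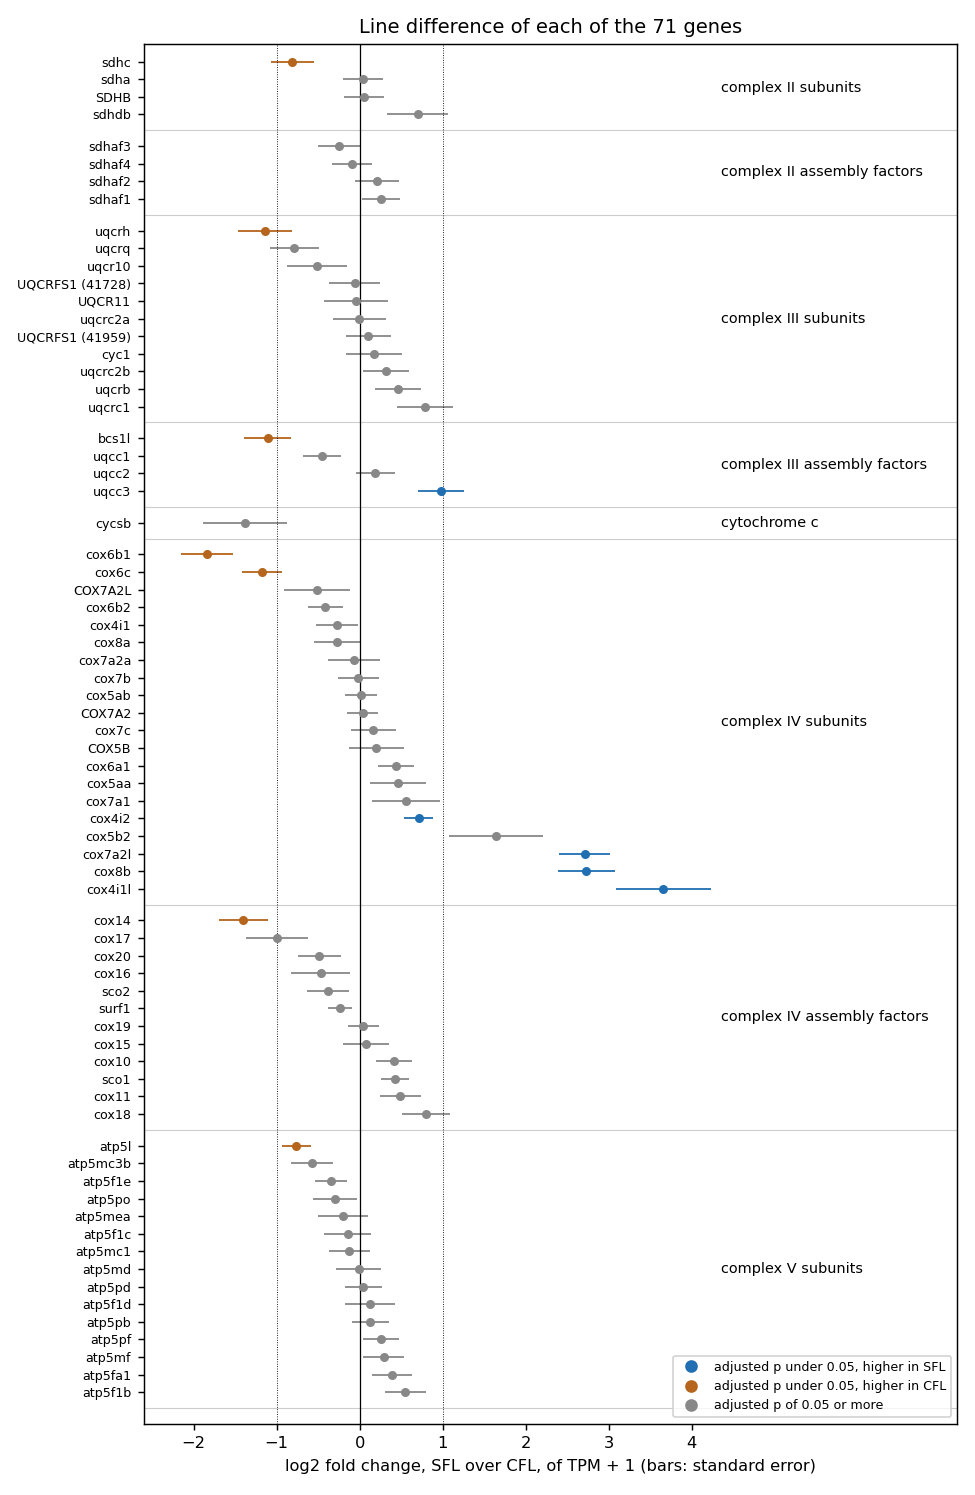
Change of each of the 71 members between the lines, as the SFL minus CFL difference in mean log2(TPM + 1) (x axis), with the members grouped by role (y axis); points are limma estimates, bars are standard errors, and coloured points passed the adjusted p (blue higher in SFL, orange higher in CFL). Most members lie within 1 unit of 0, and the points farthest out are paralogs counted among the complex IV subunits, from -1.84 for cox6b1 to 3.66 for cox4i1l.

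SFL replicate 3 stood apart in these genes and bears on every value that follows. It had the lowest level of the 3 SFL libraries in 65 of 71 members (91.5%), against 32.3% of all tested genes and 41.6% of 5215 genes that reached 10 TPM in every library. Relative to the mean of SFL replicates 1 and 2, its median log2 difference was -0.77 over the members, 0 over all tested genes and -0.07 over the 5215 better expressed genes. The summed TPM of the members was 20044, 19638 and 18822 in CFL and 19873, 20484 and 11569 in SFL, so that SFL replicate 3 held 57.3% of the mean of the other SFL libraries. The lines overlapped in this sum (exact permutation p = 0.9, two-sided). With 3 libraries against 3, this test cannot go below 0.1.

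The drop in SFL replicate 3 ran through all of the complexes. Its sum relative to the mean of SFL replicates 1 and 2 was 59.0% for complex II subunits, 47.8% for complex III subunits, 56.2% for complex IV subunits and 61.3% for complex V subunits. Cytochrome c, a role with the single gene cycsb, was the lowest of the roles in this measure, at 26.2%. The 6 exceptions were sdhaf3, uqcc3, surf1, sco1, cox8b and cox4i2, of which 4 are assembly factors and the others are minor complex IV isoforms. All 15 genes of the citric acid cycle, which feeds electrons to complexes I and II, were also lowest in this SFL library. In the same library pprc1, a coactivator of respiratory genes, was at 14.2 TPM against 39.1 and 59.6 TPM in SFL replicates 1 and 2. It was the farthest down of 17 regulators of mitochondrial biogenesis, whose median log2 difference in this measure was -0.17. Of 9 fibroblast markers 8 were in the table, and the 4 that reached 1 TPM in all SFL libraries were highest in this library. Among these acta2 was at 150 TPM against 31.1 and 73.9 TPM, and col1a1a was at 386 TPM against 194 and 260 TPM. In contrast pdgfra was at 1.19 TPM against 1.47 and 0.43 TPM, and lum was at 0 TPM in this library. Of 8 simple epithelium markers, the 4 that reached 1 TPM in all SFL libraries were also highest in this library. Among them anxa4 was at 463 TPM against 143 and 155 TPM, and krt18b was at 2205 TPM against 1436 and 1760 TPM. Their part in the result was not tested.

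**Figure D2:**
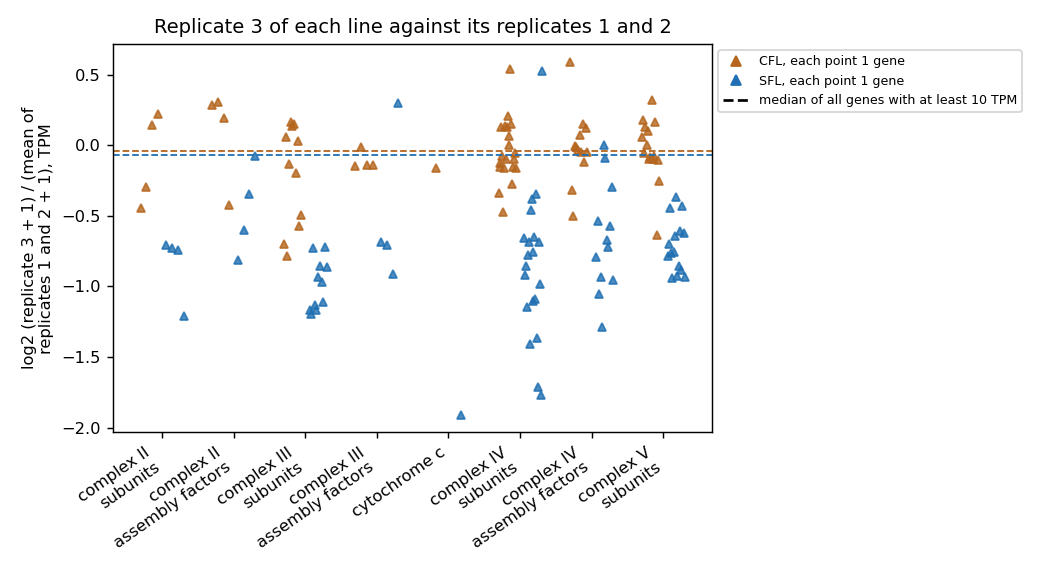
Deviation of replicate 3 from the mean of replicates 1 and 2 of its own line for the 71 members, as a log2 ratio of TPM + 1 (y axis), by role (x axis), with CFL in orange and SFL in blue; each point is a gene and dashed lines are medians of all genes with at least 10 TPM. The SFL points centre on a median of -0.77, whereas the CFL points centre on -0.06.

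SFL replicate 3 was singled out for its low values in these genes, so leaving it out moves members towards SFL by construction. The balance of the calls then turned towards SFL, which is no separate result. Of the 71 members, 8 (11.3%) were higher in SFL by at least 2-fold with the adjusted p, against 12.3% of 18231 genes tested. In CFL 2 (2.82%) were higher, against 9.57% of genes. With the adjusted p alone, 18 members (25.4%) passed with the higher level in SFL, against 21.5% of genes. With the higher level in CFL 7 (9.86%) passed, against 16.3% of genes. Of the 12 members that passed the adjusted p with all libraries, 10 also passed without this library, and uqcc3 and sdhc did not. Of the 8 members called at 2-fold with all libraries 5 were also called without it, and cox6c (-0.96), bcs1l (-0.80) and uqcrh (-0.76) fell short of 2-fold. Members that passed only without it included uqcrc1, cox18, sdhdb, cox5aa, atp5f1b and atp5fa1, all higher in SFL, and cycsb, which was higher in CFL.

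**Figure D3:**
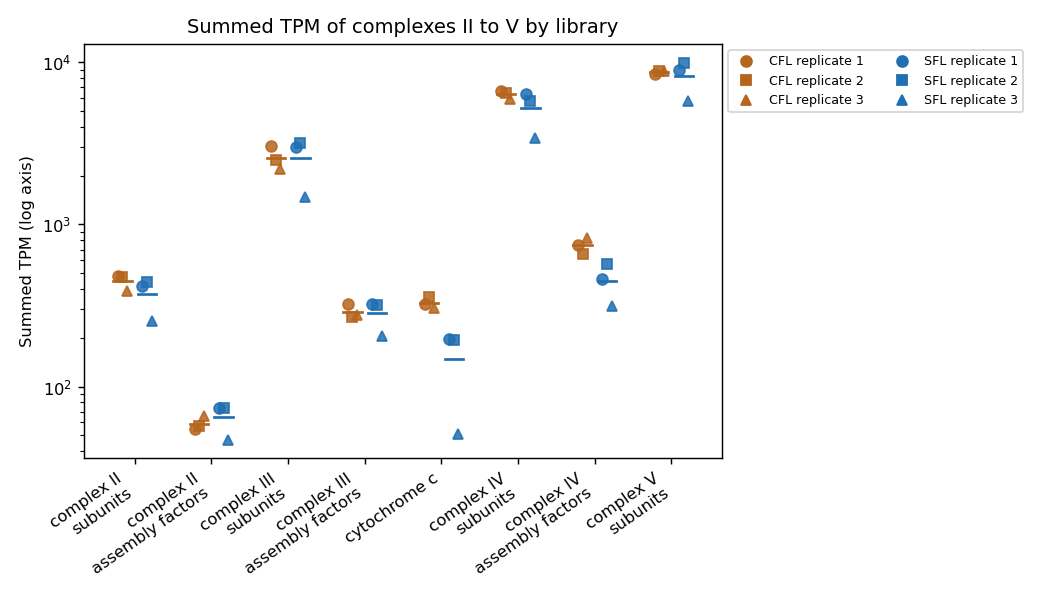
Summed TPM of the subunits or factors of each complex (y axis, log scale) in each of the 6 libraries, with CFL and SFL side by side; points are libraries and horizontal lines are means of 3. SFL replicate 3 is the lowest point for the subunits of complexes II to V.

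Complex II, succinate dehydrogenase, oxidises succinate in the citric acid cycle and passes the electrons to ubiquinone. Its subunits summed to 481, 475 and 387 TPM in CFL against 417, 441 and 253 TPM in SFL (exact permutation p = 0.3). The most abundant subunit was sdhc, a membrane anchor, at 254, 264 and 190 TPM in CFL against 146, 167 and 95.6 TPM in SFL. The lines did not overlap, and sdhc was lower in SFL by a log2 change of -0.81 (SE 0.26, limma adjusted p = 0.0481). The call was lost on leaving out any library other than SFL replicate 2, with limma adjusted p up to 0.158. The flavoprotein subunit sdha, which holds the succinate-binding site, was at 164, 149 and 127 TPM in CFL against 179, 176 and 107 TPM in SFL. Its lines overlapped (0.04, SE 0.24, limma adjusted p = 0.908). Within the complex, sdhc therefore made up 49.0% to 55.5% of subunit transcripts in CFL and 35.1% to 37.8% in SFL. The other anchor, sdhdb, was at 11.4, 16.8 and 16.6 TPM in CFL against 32.7, 32.9 and 13.6 TPM in SFL, with SFL replicate 3 inside the CFL range (0.70, SE 0.37, limma adjusted p = 0.179). Without that library, singled out for its low values, its change was 1.1 (SE 0.21, limma adjusted p = 0.0115), which lends no further support. The 4 assembly factors sdhaf1 to sdhaf4, which help to insert cofactors and mature the subunits, had changes between -0.24 and 0.25, with limma adjusted p from 0.413 to 0.782. The most abundant was sdhaf2, needed to attach FAD to sdha, at 22.1, 26.4 and 29.8 TPM in CFL against 36.7, 36.3 and 20.3 TPM in SFL.

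Complex III, the cytochrome bc1 complex, carries electrons from ubiquinol to cytochrome c. Of its 11 subunits, 0 passed the adjusted p with the higher level in SFL, against 19.5% of all genes. With the higher level in CFL 1 (9.09%) passed, against 15.2% of all genes. This was uqcrh, the acidic hinge protein at which cytochrome c docks, at 383, 358 and 337 TPM in CFL against 196, 229 and 96.2 TPM in SFL. Every SFL library was below every CFL library, with a change of -1.14 (SE 0.33, limma adjusted p = 0.0353). The call was lost without any 1 of the CFL libraries and without SFL replicate 1, with limma adjusted p up to 0.107. The small subunit uqcrq was likewise at 134 to 167 TPM in CFL against 53.6 to 111 TPM in SFL, without overlap (-0.79, SE 0.29, limma adjusted p = 0.079).

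The core protein uqcrc1 went the other way in part of the libraries. It was at 270, 280 and 286 TPM in CFL against 648, 617 and 275 TPM in SFL, so that SFL replicates 1 and 2 were above every CFL library and SFL replicate 3 was not. Its change was 0.78 (SE 0.34, limma adjusted p = 0.115) with all libraries and 1.18 (SE 0.14, limma adjusted p = 0.00229) without SFL replicate 3. That library was singled out for its low values in these genes, so the fit without it lends no further support. As a share of complex III subunit transcripts, which does not depend on how far the whole complex is down in a library, uqcrc1 was 8.88% to 12.9% in CFL and 18.5% to 21.5% in SFL. The same share for uqcrh was 12.6% to 15.3% in CFL and 6.48% to 7.14% in SFL. Both shares separated the lines in all 6 libraries. Of the 11 shares in this role, 3 were higher in SFL without overlap, 2 were higher in CFL and 6 overlapped. Over all roles with more than 1 member, 60% of shares did not overlap. Shares of a role sum to a fixed total and are not independent. The most abundant subunit, UQCR11, ranged from 533 to 987 TPM in CFL and from 413 to 971 TPM in SFL and overlapped (-0.05, SE 0.39, limma adjusted p = 0.935).

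Among the 4 complex III assembly factors, bcs1l and uqcc3 passed in opposite directions. This was 1 (25%) in CFL against 15.2% of all genes, and 1 (25%) in SFL against 19.5%. The ATPase bcs1l, which moves the Rieske iron-sulfur protein across the inner membrane, was at 25.3, 23.6 and 22.0 TPM in CFL against 12.7, 13.5 and 6.49 TPM in SFL. The lines did not overlap, and the change was -1.11 (SE 0.28, limma adjusted p = 0.0233), a call that was lost without any 1 of the CFL libraries (limma adjusted p up to 0.0813). In contrast uqcc3, a factor for cytochrome b assembly, was at 11.9, 5.57 and 7.83 TPM in CFL against 15.3, 16.1 and 19.6 TPM in SFL. It was higher in all SFL libraries (0.98, SE 0.28, limma adjusted p = 0.0331) and, like cox4i2, had its highest level of all in SFL replicate 3. Its call was lost on leaving out any library other than CFL replicate 1, with limma adjusted p up to 0.107. The more abundant factors uqcc1 and uqcc2 had changes of -0.45 (SE 0.23, limma adjusted p = 0.168) and 0.19 (SE 0.23, limma adjusted p = 0.552). The symbol UQCRFS1, the Rieske protein, was given to 2 gene IDs. ENSAMXG00000041959 had a mean of 114 TPM in CFL against 127 TPM in SFL, and ENSAMXG00000041728 had a mean of 14.2 TPM in CFL against 14.0 TPM in SFL, with overlap between the lines for both.

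Cytochrome c shuttles electrons between complexes III and IV. It was represented by cycsb alone, at 322, 359 and 305 TPM in CFL against 196, 194 and 51.2 TPM in SFL. Every SFL library was lower, but SFL replicate 3 spread so far from the others that the change of -1.38 (SE 0.51) had a limma adjusted p of 0.0769. Without that library the change was -0.74 (SE 0.15, limma adjusted p = 0.0127). The smaller spread is built into leaving out a library singled out for its low values, so this is no separate result.

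Complex IV, cytochrome c oxidase, passes the electrons to oxygen and has the most members here. Of its 20 subunits 4 (20%) passed the adjusted p with the higher level in SFL, against 19.5% of all genes, and 2 (10%) with the higher level in CFL, against 15.2% of all genes. Its sum was 6665, 6510 and 5965 TPM in CFL against 6416, 5749 and 3417 TPM in SFL (exact permutation p = 0.2). The most abundant subunit transcript was cox6c, a small subunit in the inner membrane, at 2355, 2054 and 1746 TPM in CFL against 1087, 1009 and 665 TPM in SFL. The lines did not overlap, and cox6c was lower in SFL by a change of -1.18 (SE 0.24, limma adjusted p = 0.0109). It made up 29.3% to 35.3% of complex IV subunit transcripts in CFL but 16.9% to 19.5% in SFL. The next, cox8a, was at 953 to 1085 TPM in CFL against 546 to 1082 TPM in SFL and overlapped (-0.27, SE 0.28, limma adjusted p = 0.474). The subunit cox7c took 10.6% to 12.9% of the complex in CFL and 16.2% to 17.3% in SFL, although its level overlapped between the lines (0.17, SE 0.27, limma adjusted p = 0.656). Shares sum to a fixed total, so the lower share of cox6c by itself raises that of cox7c.

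Paralog ratios separated the lines for most of the pairs. The members contained 10 families of paralogs with 24 genes and 21 pairs, and for each pair the log2 ratio of TPM + 1 of the rarer over the commoner gene was taken within each library. Where both genes are well above 1 TPM, such a ratio is nearly free of the scaling of a library. Where the rarer gene is near or below 1 TPM, as for cox5b2 and cox4i2, the added 1 makes the ratio follow the commoner gene: with 0.1 added instead, the difference between the lines moved from 1.44 to 3.80 for cox5b2 over COX5B and from 0.98 to 2.07 for cox4i2 over cox4i1. For 16 of 21 pairs, from 7 of the 10 families, the 3 SFL ratios and the 3 CFL ratios did not overlap, with either 1 or 0.1 added. The 16 include cox5b2 over COX5B, the only pair of its family. Because cox5b2 entered the test through its SFL libraries alone, the separation of that pair was built into its selection and lends no support. Over all tested genes, single levels did not overlap in 53% in either direction, and the corresponding share for ratios of other gene pairs was not computed. The ratio was higher in SFL for 14 of the 16 pairs and higher in CFL for the other 2. Each had an exact permutation p of 0.1, the smallest that 3 against 3 libraries allow. Pairs of a family share genes, so the 16 are not independent, and reads of near-identical copies could be assigned to either gene when the authors counted them.

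**Figure D4:**
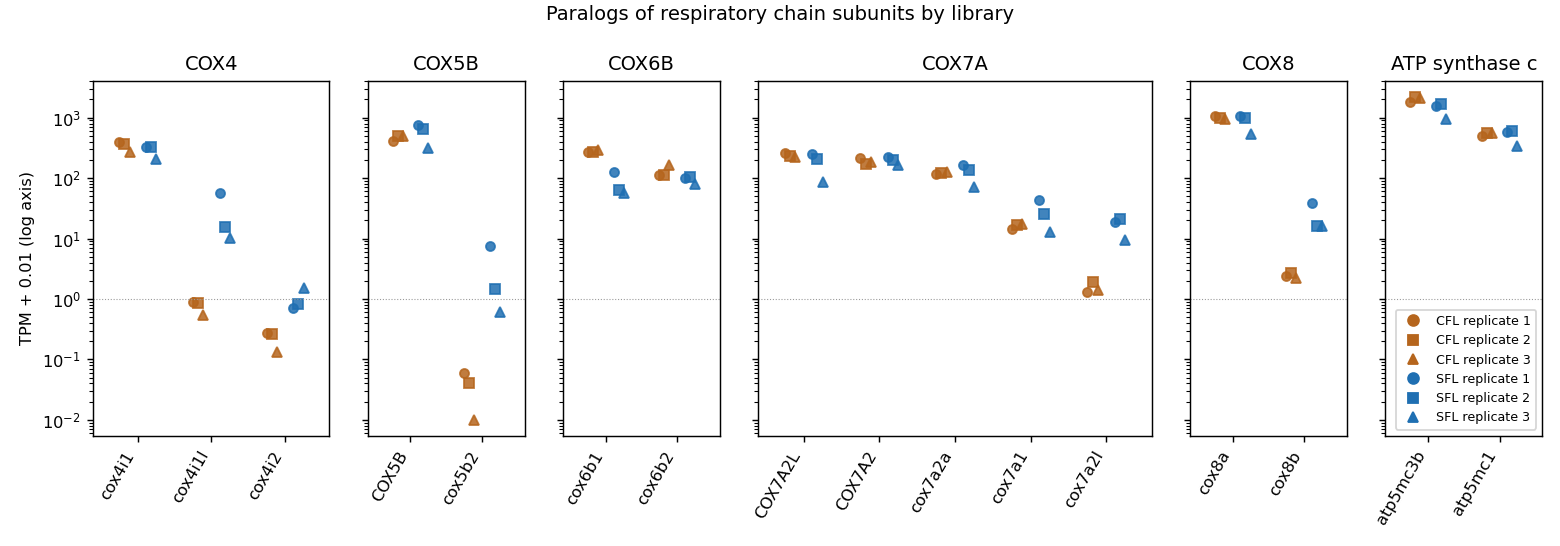
TPM + 0.01 (y axis, log scale) of the paralogs of 6 families in each of the 6 libraries, with CFL in orange, SFL in blue and a symbol shape for each replicate. The rare copies cox4i1l, cox5b2, cox7a2l and cox8b are higher in all SFL libraries, cox6b1 is lower in all of them, and cox4i1, COX5B, COX7A2L and cox8a overlap between the lines.

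Subunit 4, at which ATP regulates the enzyme in mammals, showed the largest shift. The common form cox4i1 was at 399, 366 and 275 TPM in CFL against 333, 332 and 206 TPM in SFL, with overlap (-0.27, SE 0.26, limma adjusted p = 0.43). The second copy cox4i1l was at 0.89, 0.84 and 0.54 TPM in CFL against 56.8, 15.4 and 10.3 TPM in SFL. It was close to absent from CFL and present in each SFL library, although over a wide range, and its change was 3.66 (SE 0.57, limma adjusted p = 0.00389). It contributed 0.20% to 0.23% of the family in CFL and 14.6%, 4.44% and 4.74% in SFL. The isoform cox4i2, which in mammals is found in lung and responds to low oxygen, was near the limit of the table, at 0.26, 0.25 and 0.12 TPM in CFL against 0.69, 0.81 and 1.52 TPM in SFL. It did not overlap between the lines (0.71, SE 0.17, limma adjusted p = 0.0198), but it remained below 1% of the family throughout. The call was lost without any 1 of the CFL libraries (limma adjusted p up to 0.0645).

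The families of subunits 7A and 8 also had a rare gene higher in SFL, whereas the levels of their common genes overlapped between the lines. The small membrane subunit cox8b, which in mice is the form of heart, muscle and brown fat, was at 2.41, 2.63 and 2.17 TPM in CFL against 38.2, 15.9 and 16.4 TPM in SFL. The lines were far apart (2.73, SE 0.35, limma adjusted p = 0.0017), and its share of the cox8 family was 0.22% to 0.26% in CFL and 1.58% to 3.41% in SFL. The symbol cox7a2l was carried by 2 gene IDs that differed in letter case only, and in mice this gene links complexes III and IV into supercomplexes. The copy ENSAMXG00000030489 was at 1.29, 1.89 and 1.42 TPM in CFL against 18.6, 20.9 and 9.49 TPM in SFL, without overlap (2.71, SE 0.31, limma adjusted p = 0.0011). The main copy COX7A2L, ENSAMXG00000029555, was at 260, 231 and 220 TPM in CFL against 250, 210 and 85.8 TPM in SFL and overlapped (-0.51, SE 0.39, limma adjusted p = 0.341). The common forms COX7A2 and cox7a2a also overlapped, with changes of 0.04 (SE 0.19, limma adjusted p = 0.889) and -0.07 (SE 0.32, limma adjusted p = 0.881). As a share of the family, however, COX7A2L was 40.2% to 42.8% in CFL and 25.2% to 35.6% in SFL, without overlap. The shares of COX7A2 and cox7a2a overlapped, and shares sum to a fixed total.

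The isoform cox7a1, the heart and skeletal muscle form of mammals, was at 14.4, 16.7 and 17.4 TPM in CFL against 43.6, 25.3 and 12.7 TPM in SFL, and only SFL replicates 1 and 2 were above the CFL range (0.56, SE 0.41, limma adjusted p = 0.318). Its change was 1.003 without SFL replicate 3 (limma adjusted p = 0.0291) and 0.15 without SFL replicate 1 (limma adjusted p = 0.729). Leaving out any library other than SFL replicate 3 gave limma adjusted p from 0.399 to 0.729. SFL replicate 3 was singled out for its low values, so the fit without it lends no further support. The share of cox7a1 in its family was 2.37% to 3.18% in CFL and 3.73% to 6.21% in SFL, without overlap. Of 10 striated muscle markers 8 were in the table, and their summed level was 17.7 to 48.2 TPM in CFL against 822 to 1368 TPM in SFL. Nearly all of this came from the troponin gene tnnt3b, whereas mb, actc1a, mylpfa, ckma and tnnt3a were below 1 TPM in every SFL library. The marker acta1b was at 3.28, 23.3 and 41.9 TPM in SFL, against 2.42 to 9.08 TPM in CFL. For ckmb the levels were 14.9, 0.42 and 0.63 TPM in SFL, against 0.12 to 0.17 TPM in CFL.

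Subunit 6B, which joins the monomers of the complex IV dimer, was the family in which both copies were well expressed and the common form changed. The ubiquitous form cox6b1 was at 275, 266 and 296 TPM in CFL against 128, 63.3 and 56.3 TPM in SFL. It was lower in every SFL library, with a change of -1.84 (SE 0.31, limma adjusted p = 0.00541), the largest decrease among the members. The other copy cox6b2, the testis form of mammals, was at 113, 111 and 163 TPM in CFL against 102.3, 103 and 80.8 TPM in SFL. It was also lower in each SFL library, but by less (-0.41, SE 0.21, limma adjusted p = 0.174). As a result cox6b2 made up 29.1%, 29.4% and 35.5% of the family in CFL and 44.4%, 62.0% and 58.9% in SFL, and was the more abundant copy only in SFL replicates 2 and 3.

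In subunit 5B the rare copy cox5b2 was at 0.05, 0.03 and 0 TPM in CFL against 7.42, 1.45 and 0.59 TPM in SFL. The lines did not overlap, but the SFL libraries spread widely, and cox5b2 was the only member that entered the test through its SFL libraries alone, so that a difference was built into its selection (1.64, SE 0.56, limma adjusted p = 0.0624). Without SFL replicate 1 the change was 0.94 (limma adjusted p = 0.0178), and without SFL replicate 3 it was 2.15 (limma adjusted p = 0.0205). Leaving out any other library gave limma adjusted p from 0.0951 to 0.149. SFL replicate 3 was singled out for its low values, so the fit without it lends no further support. The common copy COX5B was at 413, 491 and 495 TPM in CFL against 749, 646 and 315 TPM in SFL. For subunit 5A, which binds thyroid hormone in mammals, the share of cox5aa was 40.2% to 41.7% in CFL and 55.6%, 48.8% and 41.3% in SFL, so that SFL replicate 3 fell inside the CFL range.

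Complex IV assembly factors build heme a and the copper centres and guide the core subunits into the membrane. Their sum was 745, 661 and 821 TPM in CFL against 463, 574 and 313 TPM in SFL, without overlap (exact permutation p = 0.1). This sum was carried by cox14, which couples synthesis of the first core subunit to assembly, at 325, 331 and 495 TPM in CFL against 147, 197 and 98.7 TPM in SFL. It was lower in all SFL libraries, by a change of -1.40 (SE 0.30, limma adjusted p = 0.0127). As the only called member of the 12 it made 8.33% higher in CFL, against 15.2% of all genes. The second most abundant factor, cox20, a chaperone of the second core subunit, was at 120 to 172 TPM in CFL against 77.4 to 136 TPM in SFL (-0.49, SE 0.26, limma adjusted p = 0.188). The copper chaperone cox17, at 39.9 to 41.4 TPM in CFL against 10.6 to 32.9 TPM in SFL, did not overlap either (-0.99, SE 0.38, limma adjusted p = 0.0816). The copper chaperones sco1 and sco2, which deliver copper to the second core subunit, were at nearly equal level in CFL. There sco1 held 48.7%, 49.2% and 47.5% of the pair, whereas it held 59.2%, 59.8% and 70.6% in SFL. Neither gene passed alone, sco1 with a change of 0.43 (SE 0.17, limma adjusted p = 0.0912) and sco2 with -0.39 (SE 0.25, limma adjusted p = 0.27).

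Complex V had 1 called subunit of 15 (6.67%), higher in CFL against 15.2% of all genes, and 0 higher in SFL against 19.5%. Its sum was 8417, 8805 and 8795 TPM in CFL against 8974, 9931 and 5797 TPM in SFL (exact permutation p = 1). The called subunit was atp5l, subunit g of the membrane part, which takes part in dimer formation of the enzyme. It was at 623, 612 and 584 TPM in CFL against 368, 411 and 301 TPM in SFL, a change of -0.76 (SE 0.17, limma adjusted p = 0.0152), which was lost without CFL replicate 1 (limma adjusted p = 0.0559) or without CFL replicate 2 (limma adjusted p = 0.0684). As a share of complex V subunit transcripts, 4 of the 15 subunits were higher in SFL without overlap, 3 were higher in CFL and 8 overlapped. Thus 46.7% of these shares did not overlap, against 60% over all roles with more than 1 member. Shares sum to a fixed total and are not independent. The subunits named next were among the shares that separated the lines, although their levels were not called. The subunits atp5fa1 and atp5f1b made up 10.5% to 11.7% and 5.84% to 6.44% of subunit transcripts in CFL. In SFL they made up 15.0% to 15.9% and 9.45% to 10.1%. The proton-carrying c-ring subunit atp5mc3b, the most abundant, made up 21.9% to 24.8% in CFL and 16.4% to 17.5% in SFL.

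The values of the c-ring pair lay close together within each line. Mature c subunits from the different genes are identical in mammals, and the genes differ in their targeting peptides. The level of atp5mc1 was 493, 557 and 562 TPM in CFL against 573, 600 and 346 TPM in SFL, and that of atp5mc3b was 1843, 2186 and 2095 TPM in CFL against 1573, 1704 and 951 TPM in SFL. The share of atp5mc1 was 21.1%, 20.3% and 21.1% in CFL and 26.7%, 26.0% and 26.7% in SFL. SFL replicate 3, although far lower in both genes, thus had a share between those of the other SFL libraries.

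Counted over all roles with more than 1 member, the share of a member within its own role separated the lines without overlap for 42 of 70 members (60%). Over all tested genes, levels did not overlap in 53%, but a level is a different measure from a share. The corresponding number for shares within other gene sets was not computed. For 31 members the share was higher in SFL and for 11 it was higher in CFL, and the other 28 overlapped. The 31 include cox5b2, whose difference was built into its selection. Shares within a role sum to a fixed total, so a lower share of an abundant member such as cox6c raises the others. Among the 20 complex IV subunits, 12 had the higher share in SFL and 2 had it in CFL. These numbers were 3 and 2 among the 11 complex III subunits, and 4 and 3 among the 15 complex V subunits.

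Genes that act together with these complexes were examined from lists chosen by function. Of 21 further complex IV and V factors outside the naming rule, 2 (9.52%) passed the adjusted p with the higher level in SFL and 3 (14.3%) with the higher level in CFL, against 19.5% and 15.2% of all genes. The former included higd2a, a supercomplex factor, with a change of 1.40, and the latter included ENSAMXG00000029921, a copy of HIGD1A, its relative that responds to low oxygen in mammals, with -2.09. The other copy of HIGD1A, ENSAMXG00000038553, did not pass (0.39, limma adjusted p = 0.289). Of 15 citric acid cycle genes 4 (26.7%) passed, each with the higher level in SFL, against 19.5% of all genes, and the median change over the list was 0.47. They were suclg1 (1.90), cs (0.99), dlst (0.61) and IDH3G (0.79). The last of these, ENSAMXG00000017951, was near the limit of the table, at 0.15 to 0.22 TPM in CFL against 0.61 to 1.47 TPM in SFL, whereas the main copy idh3g, ENSAMXG00000018176, did not pass (0.57, limma adjusted p = 0.179). Of 17 regulators of mitochondrial biogenesis 3 (17.6%) were higher in SFL, against 19.5% of all genes. These were nrf1 (0.73), esrra (0.85) and polg (0.70). The coactivator ppargc1b was higher in CFL (-1.29), as 1 of 17 (5.88%) against 15.2% of all genes.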

How the data were processed

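Gene-level TPM values were taken as deposited. Per the study's methods, the authors sequenced stranded poly(A) libraries as 75-base single reads, aligned them with STAR to a UCSC genome, whose build is not given in the sources used here, with Ensembl annotation, and estimated TPM with RSEM. The submitters' processing notes name bcl2fastq 2.18 and STAR 2.7.3a. TPM keeps no depth, so no counting interval could be given. The study tested counts, and only TPM was used here.

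Genes that reached 0.2 TPM in 1 or more of the 6 libraries were tested on log2(TPM + 1) with limma 3.58.1 in R 4.3.3 (lmFit, eBayes with trend) and Benjamini-Hochberg adjustment, after the code was tested on simulated data. Calls used an adjusted p of 0.05, alone or with a 2-fold change. Sums and paralog ratios were compared by two-sided exact permutation over libraries, computed with numpy 2.4.6 and without adjustment over pairs. Columns without a sample numbered 0. Members and lists were chosen with earlier results of these data known. Named were called members, the 2 most abundant members of each complex, paralogs of pairs with a called member or ratios that did not overlap, and symbols used by 2 IDs, and other names were chosen after their values were seen. Alternatives were other pseudocounts, filters and scalings, lmFit without trend, a replicate block, later passages alone and leaving out each library.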

Additional observations from a re-analysis of the deposited data

How the results depend on the processing

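Across the 15 alternatives, cox4i1l, cox8b, cox7a2l and cox6b1 passed the adjusted p in every one, and cox14 and cox6c in all but the comparison of later passages alone, which drops replicate 1 of each line. The other called members each lost their call in at least 3. The cause of these losses was not tested, except that leaving out libraries leaves fewer samples. With pseudocount 0.1 or 0.5, the 2-fold calls higher in SFL were 6 members, and 2492 of all genes were called higher in CFL with pseudocount 0.1. With later passages alone, 1 member was called higher in CFL by either rule, and 1919 and 1309 of all genes passed the adjusted p in SFL and CFL.

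On leaving out each library in turn, 2-fold calls ranged from 3 to 8 members in SFL and from 2 to 5 in CFL, and adjusted p calls from 3 to 18 and from 3 to 7. Over all genes, adjusted p calls ranged from 2063 to 3919 in SFL and from 1646 to 2971 in CFL. The highest SFL counts came without SFL replicate 3.

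Changes that turned direction were all small and not called. With later passages alone they were COX5B at -0.13, UQCR11 at 0.0046, UQCRFS1 (ENSAMXG00000041959) at -0.11, sdha at -0.0026 and sdhaf2 at -0.042. With median-ratio scaling they were COX7A2 at -0.067 and sdha at -0.063, and with quantile normalization COX7A2 at -0.075, UQCRFS1 (ENSAMXG00000041959) at -0.049 and sdha at -0.10. Without their highest member, the log2 ratios of line means were 0.14 for the complex II sum and 0.0415 for the complex V sum. On leaving out each library in turn, changes ranged from -0.042 to 0.58 for COX5B, -0.072 to 0.17 for COX7A2, -0.28 to 0.34 for UQCR11, -0.28 to 0.22 for ENSAMXG00000041728, -0.068 to 0.39 for ENSAMXG00000041959, -0.27 to 0.13 for atp5mc1, -0.31 to 0.29 for cox7a2a, -0.46 to 0.034 for cox8a, -0.087 to 0.28 for sdha and -0.26 to 0.10 for sdhaf4. The log2 ratios of sums ranged from -0.31 to 0.049 for all members, -0.13 to 0.16 for complex III assembly factors, -0.20 to 0.27 for complex III subunits and -0.23 to 0.12 for complex V subunits.

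Libraries of the lines share replicate numbers, and replicate 1 was the earlier passage in both lines. Deviations of same-numbered libraries from their line means correlated at -0.22, 0.08 and -0.07. With 3 libraries per line the deviations are tied to each other, so these values cannot decide whether same-numbered libraries shared a batch. With the replicate block, 3 and 5 members were called at 2-fold and 4 and 7 by the adjusted p in SFL and CFL, uqcc3 being lost (limma adjusted p = 0.0573). Depth cannot be recovered from TPM, so the precision of values near 0, such as those of cox5b2 and cox4i2, is unknown.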
